A study of Mus musculus with 6 samples.

Results

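The epithelial-mesenchymal transition regulators described here are 10 genes of the 32285 in the gene list of a single-cell RNA series from the mouse embryo. They were selected by gene symbol, and all 10 were found. They comprise the Snail factors Snai1 and Snai2, the Twist factors Twist1 and Twist2, the Zeb factors Zeb1 and Zeb2, the cadherins Cdh1 and Cdh2, the intermediate filament gene Vim and the SoxE factor gene Sox9. Tissue came from the microdissected cardiogenic region of wild type C57BL/6 embryos at E10.5, mid-gestation, and per the labels also held ectoderm, endoderm and non-cardiac mesoderm. Of the 6 samples, 3 came from embryos of vehicle-pretreated normal glycemic females and 3 from embryos of females made hyperglycemic by pretreatment with streptozotocin (STZ), a toxin of insulin-producing cells. All females had been mated to normal glycemic males. All samples share 1 deposited matrix of UMI counts, in which a UMI (unique molecular identifier) stands for 1 captured RNA molecule, and a number from 1 to 6 on each cell barcode separates the libraries. No source used here pairs that number with a sample, so STZ and vehicle were not compared. The libraries were described without a treatment, no p-value was computed, and the spread between them may hold the treatment.

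In an epithelial-mesenchymal transition, cells give up their junctions and polarity, leave an epithelium and become motile. Snail and Zeb proteins are zinc finger repressors and Twist proteins are basic helix-loop-helix factors, and each is known to lower transcription of Cdh1, the E-cadherin of epithelial junctions, while N-cadherin (Cdh2) and vimentin (Vim) often mark the mesenchymal state. In the heart region at this stage, endocardial cells, the inner endothelium of the heart, give rise to cushion mesenchyme, the precursor of valves and septa, and neural crest cells that have left the dorsal neural tube fill the pharyngeal arches and the outflow tract.

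Snail and Zeb proteins bind the E-box letters CAGGTG, read on either strand, so these letters were searched in the 250 bases before the start of each member in the RefSeq promoter table (build GRCm38.p6). The table gave windows for Snai1, Twist1, Twist2, Zeb2 and Vim. Only the Snai1 window held a match, 1 CACCTG whose first base lies at -126 from the start. The windows of Twist1, Twist2 and Vim and the 4 windows of Zeb2 held none. Of all 32851 windows of that length, 17.2% held CAGGTG or CACCTG, and 66.2% held CANNTG, the general E-box that includes both. A match describes the letters only. The windows of Snai1 and Twist1, a pair of factors whose levels went together across cell types, are shown in lower case with the match in capitals. The Snai1 window is chr2:167537945-167538194 and the Twist1 window chr12:33957421-33957670, both on the plus strand.
Snai1: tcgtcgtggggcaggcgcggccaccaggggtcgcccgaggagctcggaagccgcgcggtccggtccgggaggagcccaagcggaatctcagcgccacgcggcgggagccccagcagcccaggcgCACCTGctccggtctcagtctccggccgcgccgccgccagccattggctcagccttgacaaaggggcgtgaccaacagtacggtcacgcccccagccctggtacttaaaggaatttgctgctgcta
Twist1: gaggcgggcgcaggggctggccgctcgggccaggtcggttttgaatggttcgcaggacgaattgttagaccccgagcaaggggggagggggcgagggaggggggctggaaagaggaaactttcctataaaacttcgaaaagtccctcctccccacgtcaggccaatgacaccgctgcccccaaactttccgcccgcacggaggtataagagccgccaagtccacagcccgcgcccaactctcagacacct

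The matrix held 53362 barcodes, of which 35962 had at least 2500 detected genes and at most 10% mitochondrial UMIs and were retained. Libraries held 4903 to 7136 retained cells, with medians of 30533 to 35634 UMIs per cell. Among the retained cells, 283 carried a barcode sequence also retained in another library. Doublet calling marked 411 cells (1.14%). Cells were gated by counts of detected marker genes, with no member among the markers, and 16615 cells (46.2%) entered 1 of 5 main gates.

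The epithelial gate held 5520 cells (at least 4 of 7 markers such as Epcam and Cldn6), of which 1575 carried surface ectoderm markers such as Trp63 and 884 carried endoderm markers such as Foxa2. The endothelial gate held 1991 cells (at least 4 of 7 markers such as Cdh5 and Pecam1), of which 1421 were endocardial, with at least 3 of Nfatc1, Npr3, Gata4, Gata5 and Gata6, and 345 were other endothelium, with at most 1. The cushion gate held 463 cells with at least 6 of 9 markers, Postn or Papss2 among them, and fewer than 4 endothelial markers. The crest mesenchyme gate held 8218 cells with at least 4 of 9 markers (Prrx, Dlx and Alx genes and Tfap2b). The Sox10+ crest gate held 423 cells with Sox10 and at least 3 of 6 markers of migratory crest and early glia, such as Foxd3. A gate is a range along a marker count: 11.5% of epithelial, 9.19% of endothelial, 37.4% of crest mesenchyme, 17.7% of cushion and 16.8% of Sox10+ cells sat exactly at the minimum. The median cell showed 6 of 7 epithelial, 6 of 7 endothelial, 7 of 9 cushion, 5 of 9 crest mesenchyme and 5 of 6 migratory crest markers of its own gate. The cushion and endocardial gates shared many markers. Gata4, Gata5 and Gata6 are on both lists, so the likeness of the gates in these lists is partly fixed by the gating. The endocardial list summed to 776 CPM in cushion cells and 799.6 CPM (UMIs per 1000000 UMIs of the gate) in endocardium, with a median of 4 and 5 of its 5 genes detected, and the median endocardial cell showed 6 of 9 cushion markers, the cushion minimum. The gates were separated mainly by the endothelial list, at 88.8 CPM in cushion cells and 1372 CPM in endocardium. The cushion gate also carried smooth muscle markers at a summed 1336 CPM, with libraries from 394 to 1815, against 33.4 in the endocardial gate. Cardiomyocyte markers summed to 537 CPM there and to 257 CPM in the endocardial gate. Crest mesenchyme markers summed to 390 CPM (256 to 487) in the cushion gate against 24.9 (11.6 to 33.4) in the endocardial gate, and markers of migratory crest and glia to 48.4 against 6.14 CPM. None of the smooth muscle, cardiomyocyte or crest mesenchyme markers was at 0, and the part of these lists in the results was not tested.

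Levels are CPM over all cells of a gate, with ratios between gates and their 95% counting intervals. These intervals cover counting error only. A gene was counted as higher or lower when the ratio was at least 2-fold, the higher gate reached 10 CPM, and every library with 20 or more cells in both gates had the same direction. A gene that reaches that level only in the gate where it is high is favoured to pass, so counts over the tested genes of a list are descriptions that support nothing by themselves. Level ranges are those of the libraries. Erythroid cells, which should lack most members, served as the background: there Cdh1 stood at 0.0326 CPM, Snai1 at 0.456, Snai2 at 0.228, Twist1 at 2.56, Twist2 at 0.716, Sox9 at 0.63, Cdh2 at 0.999 and Vim at 5.85. Zeb1 at 19.5 and Zeb2 at 75.8 CPM were above that, so erythroid cells are no background for the Zeb genes. The 6 erythroid markers took up 391508 CPM of this gate, which lowers the CPM of every other gene there.

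**Figure D1:**
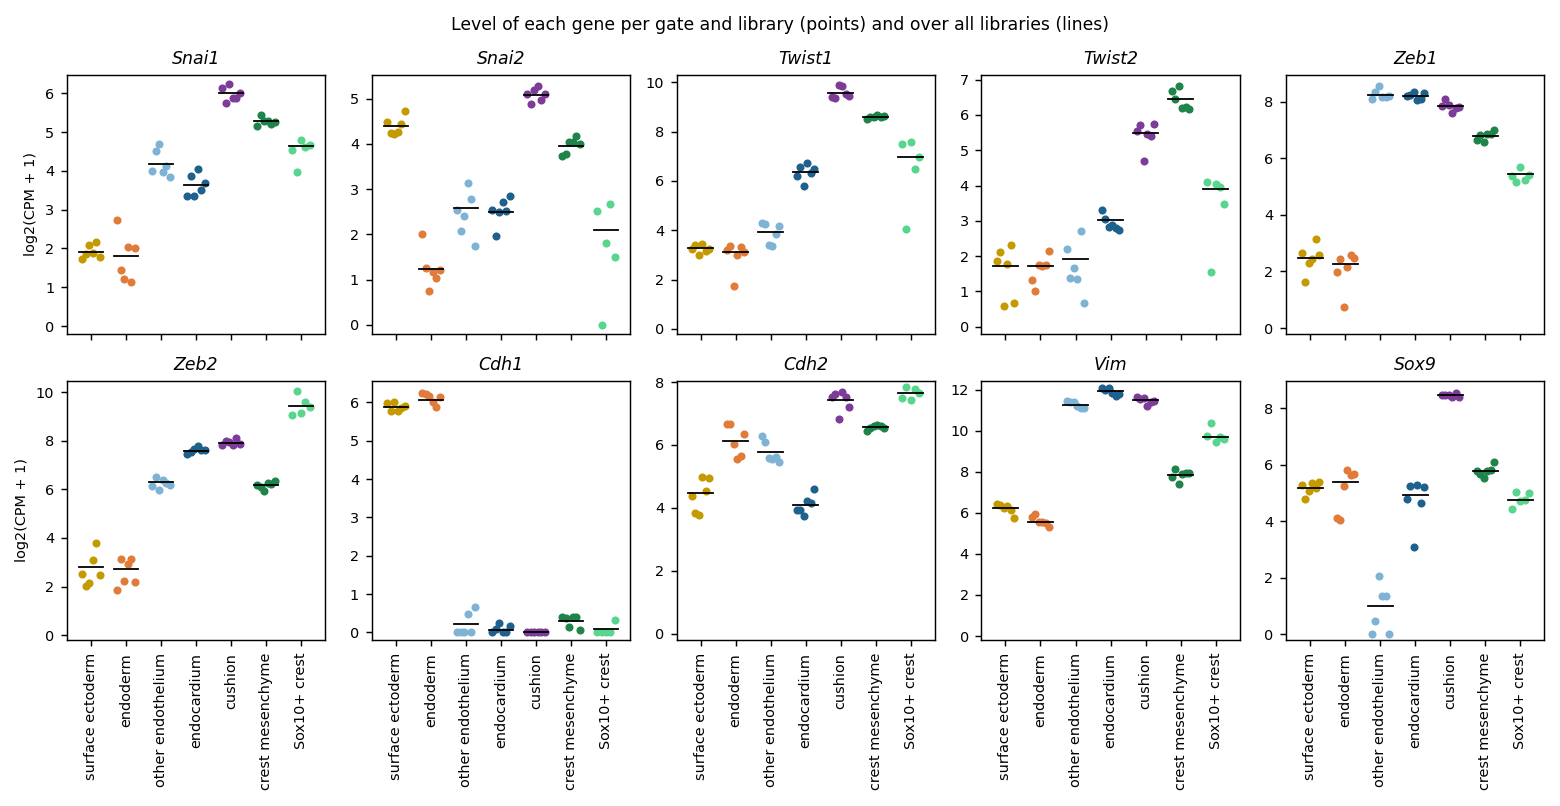
Level of each of the 10 genes, as log2(CPM + 1) on the vertical axis, in 7 groups of gated cells on the horizontal axis. Each point is 1 library with at least 20 cells, and the line is the level over all libraries. Cdh1 is high only in the surface ectoderm and endoderm columns, Snai1, Twist1 and Sox9 peak in cushion cells, Twist2 in crest mesenchyme and Zeb2 in Sox10+ crest.

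Crest mesenchyme and epithelium differed most in Cdh1 and in the Twist genes. Crest mesenchyme carried 33.3-fold more Twist1, 34.8-fold more Twist2, 16.6-fold more Zeb1, 13.4-fold more Snai1 and 10.3-fold more Zeb2 than the epithelial gate, and hardly any Cdh1. Vim was 3.57-fold higher, while Cdh2, Snai2 and Sox9 differed by less than 2-fold. Thus 6 of the 10 members were higher and 1 was lower, where 3.52% of 9378 genes tested were higher and 11% lower. The median log2 ratio was 2.60 over the members and -0.05 over all genes tested.

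Cdh1 held 9729 UMIs in the epithelial gate, 59.4 CPM, with libraries from 54.7 through a median of 59.8 to 64.4. In crest mesenchyme it held 75 UMIs, 0.238 CPM, with libraries from 0.0549 to 0.332. The libraries of the gates did not overlap, and the crest level was 0.00401 of the epithelial one (95% interval 0.00315 to 0.00503). With each cell thinned to 5000 UMIs, a Cdh1 UMI was found in 25% of epithelial and 0.17% of crest mesenchyme cells. At full depth the shares were 69.7% and 0.633%, beside 0.215% of erythroid cells. Median depth was 63910 UMIs in erythroid, 27412 in epithelial and 37431 in crest mesenchyme cells. Erythroid markers took up 391508 CPM of the erythroid UMIs, so the depth left for other genes there was lower.

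Cdh2 did not mirror Cdh1. It stood at 79.9 CPM in the epithelial gate, with libraries from 68.1 through 77.1 to 99.8, and at 93.1 CPM in crest mesenchyme, with libraries from 85.9 through 94.4 to 98.6. These ranges overlapped, and the ratio of 1.17 (1.14 to 1.19) was above 1 in 5 of 6 libraries. With 1 marker more asked of each gate, its log2 value turned from 0.22 to -0.18. Epithelial Cdh2 was not evenly spread. Endoderm carried 68.4 CPM (libraries 46.0 to 101) and surface ectoderm 21.4 (12.7 to 30.5). Over all libraries summed, both lie under the level of the gate as a whole, so epithelial cells outside both subsets carried more in that sum. This did not hold in every library: in libraries 1 and 2 endoderm stood at 99.9 and 101 CPM, above the gate at 77.4 and 71.7.

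Of the Snail factors, Snai1 stood at 2.82 CPM in epithelium (libraries 2.55 to 3.12) and at 37.6 CPM in crest mesenchyme (34.7 to 42.4), and the ranges were far apart. Snai2 stood at 7.92 CPM in epithelium (6.9 to 9.74) and at 14.5 CPM in crest mesenchyme (12.4 to 17.2), a ratio of 1.83 (1.72 to 1.95). This ratio was under the 2-fold line although higher in 6 of 6 libraries, and past it with 1 marker fewer asked of each gate. The epithelial Snai2 came mostly from surface ectoderm. There it reached 20.1 CPM, with libraries from 17.8 through 19.4 to 25.5, which is above every library of crest mesenchyme, against 1.34 CPM in endoderm, with libraries from 0.667 to 2.99. The surface ectoderm to endoderm ratio was 15.1 (10.7 to 21.9), higher in 6 of 6 libraries. The crest mesenchyme list summed to 242 CPM in surface ectoderm and 43.4 in endoderm, and the smooth muscle list to 88.6 and 37.4 CPM, and their part in the Snai2 ratio was not tested. Of 5 tested members Snai2 was the only one higher in surface ectoderm by the rule, where 4.21% of 9421 genes tested were higher, and Cdh2, at 0.312 of the endoderm level, was the only one lower, where 2.7% were lower. In the same surface ectoderm cells the other 5 Snail, Twist and Zeb genes stood at 2.3 to 8.66 CPM and Cdh1 at 58 CPM.

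Twist1 stood at 11.6 CPM in epithelium (7.38 to 13.9) and at 384 CPM in crest mesenchyme (362 to 410). Twist2 went from 2.49 CPM (2.01 to 3.06) to 86.6 CPM (70.8 to 113). Zeb1 stood at 6.64 CPM (3.93 to 9.54) in epithelium and 110 CPM (95.1 to 126) in crest mesenchyme. All of these ranges were separate, with every crest library above every epithelial one, and the same held for Zeb2, at 6.91 CPM (4.32 to 10.4) against 71.3 CPM (60.9 to 79.4). The epithelial gate carried crest mesenchyme markers at a summed 152 CPM against 877 CPM in crest mesenchyme itself, and their part in the low Twist and Zeb levels of epithelium was not tested. Without the 5% of cells with the highest doublet scores, the log2 ratio of crest mesenchyme over epithelium went from 3.37 to 4.05 for Zeb2. For Twist2 it went from 5.12 to 5.77.

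Several genes that maintain an epithelium were, like Cdh1, at low levels in crest mesenchyme. Of the 16 listed, 11 reached the level minimum and these were lower in crest mesenchyme, a count that the minimum largely fixes, since genes such as the following reached it only in epithelium. They included Grhl2, a transcription factor of epithelial identity, at 74.9 CPM in epithelium and 0.42 in crest mesenchyme, Esrp1, a splicing regulator of epithelial cells, at 71.8 and 0.601 CPM, and Crb3, a polarity protein, at 54.4 and 0.137 CPM. Of the 9 tested genes among 12 other cadherins and catenins, Cdh11, a cadherin of mesenchyme, was higher (205 against 45.7 CPM), and 4 were lower, among them P-cadherin Cdh3 (7.84 against 123 CPM). The matrix and invasion genes were divided, with 4 higher and 3 lower of 12 tested. Tenascin Tnc (25 against 3.13 CPM) and the protease gene Mmp2 (28.9 against 7.32) were higher, while the collagen cross-linker Loxl2 (16.6 against 210) and the hyaluronan synthase Has2 (12.7 against 47.5) were lower. Over all genes tested the shares were 3.52% higher and 11% lower, so the 1 lower of 14 partner and upstream factors is no more than that. Of these 14, 2 were higher, Foxc1 (36.2 against 9.68 CPM) and Ets1 (25.9 against 4.82), and 1 was lower, Id4 (3.8 against 56.7), an inhibitor of helix-loop-helix factors. Of 5 tested Sox and cartilage genes, 1 was higher, the cartilage collagen Col9a1 (86.7 against 15.0 CPM).

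**Figure D2:**
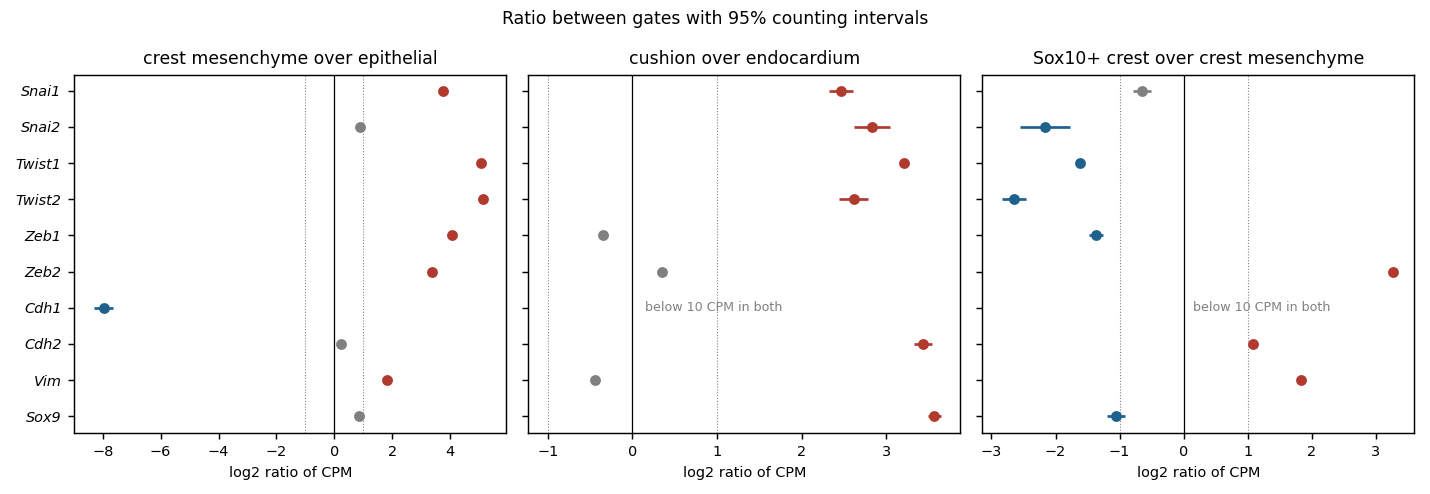
log2 ratio of CPM between gates for each member, with 95% counting intervals, in 3 comparisons, each with its own horizontal scale. Red points were at least 2-fold higher and blue points at least 2-fold lower with the same direction in every library compared, grey points were neither, and dotted lines mark 2-fold. Zeb1, Zeb2 and Vim sit near 0 only in the middle panel, cushion over endocardium.

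Cushion mesenchyme carried far more Snail, Twist, Cdh2 and Sox9 RNA than endocardium, but not more Zeb or Vim beyond the 2-fold line. Sox9 was 11.9-fold higher, Cdh2 10.8-fold, Twist1 9.27-fold, Snai2 7.11-fold, Twist2 6.13-fold and Snai1 5.52-fold. Zeb2 was 1.27-fold higher, and Zeb1 and Vim were lower, at 0.787 and 0.735 of the endocardial level. By the rule 6 of 9 tested members were higher and 0 lower, where 7.12% of 9197 genes tested were higher and 5.64% lower. The members' median log2 ratio was 2.62, against 0.05 over all genes tested.

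Sox9, which drives cartilage-type matrix programmes and is needed in valve mesenchyme, stood at 29.5 CPM in endocardium, with libraries from 7.56 through 31.4 to 38.3, and at 351 CPM in cushion cells, with libraries from 333 through 352 to 371. No endocardial library came near a cushion one (interval of the ratio 11.3 to 12.5). With 1 marker more asked of each gate, the log2 ratio went from 3.57 to 4.42. The lowest endocardial value, 7.56 CPM in library 3, stood apart from the other 5, which ran from 24 to 38.3 CPM.

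Cdh2 stood at 16.0 CPM in endocardium (12.4 through 15.6 to 23.0) and at 173 CPM in cushion cells (112 through 184 to 203), and the interval of its ratio was 10.0 to 11.6. Endocardium had the lowest Cdh2 level of the 7 groups of cells, although its neighbour in that order, surface ectoderm, overlapped it. Cdh1 gave no counterpart: endocardium held 3 UMIs, at the limit that 3 counts set, and cushion cells held 0 UMIs of 16111885, which by the limit of 3 counts allows up to 0.186 CPM. Endocardium thus held both Cdh1 and Cdh2 below their epithelial levels of 59.4 and 79.9 CPM.

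Twist1 stepped up across the endothelial and cushion cells. Other endothelium carried 14.4 CPM (9.33 to 18.6), endocardium 81.9 (53.8 to 103) and cushion cells 759 (662 through 715 to 956), with no overlap between libraries of neighbouring groups. Twist2 stood at 7.1 CPM in endocardium (5.73 to 8.83) and 43.5 in cushion cells (24.8 to 52.3). Snai1 stood at 11.4 CPM in endocardium (9.22 to 15.4) and 62.8 in cushion cells (52.7 to 73.9), and Snai2 at 4.62 (2.91 to 6.2) and 32.8 CPM (28.4 to 37.7). For each of these 4 factors every cushion library was above every endocardial library. Snai1 in endocardium was at 0.664 of the level in other endothelium (0.569 to 0.777), lower in 5 of 6 libraries.

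The Zeb genes were within 2-fold of their endocardial level in cushion cells. Zeb1 stood at 294 CPM in endocardium (267 through 295 to 321), 299 in other endothelium (270 to 377) and 231 in cushion cells (195 through 226 to 270). The endocardial and cushion ranges overlapped slightly, although within each library Zeb1 was lower in cushion cells in 6 of 6. Zeb2 stood at 190 CPM in endocardium (176 to 221) and 242 in cushion cells (223 to 278), ranges that met but did not overlap, and at 77.6 in other endothelium (62.4 to 89.2), below both. Vim was likewise high on both sides, at 3937 CPM in endocardium (3275 to 4367) and 2892 CPM in cushion cells (2385 to 3157). In crest mesenchyme, by contrast, Vim stood at 233 CPM (168 to 280), and every endothelial library was above that.

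The other listed genes are set beside shares of 7.12% higher and 5.64% lower over all genes tested. Of 8 listed Sox and cartilage genes, 5 reached the level minimum and these were higher in cushion cells, a count partly fixed by the minimum, since Col9a1 and Col2a1 reached it only there. They included Sox5, a partner of Sox9 (517 against 64.7 CPM), Col9a1 (111 against 6.42) and Col2a1 (12.8 against 1.76). Of 12 tested matrix and invasion genes, 5 were higher and 0 lower, with Vcan, the cushion proteoglycan versican, at 1199 against 147 CPM, Has2 at 140 against 33.7, Loxl2 at 227 against 57.8 and Tnc at 81.2 against 14.6. Of 9 tested cadherins and catenins, 4 were higher and 0 lower: Cdh3 (22.5 against 1.38 CPM), Cdh6 (36.9 against 3.43), Cdh10 (19.6 against 2.88) and Ctnna2 (51.0 against 2.23). Of 15 tested partner factors, 3 were higher and 0 lower: Lef1, the nuclear partner of beta-catenin (90.1 against 14.6 CPM), Id2 (632 against 227) and Id4 (14.3 against 2.76). Of the 4 tested epithelial maintenance genes, the desmosome gene Dsp (36.4 against 5.36 CPM) and the polarity gene Patj (16.4 against 4.84) were higher, and the junction genes F11r (19.7 against 68.3) and Jup (14.1 against 33.2) were lower.

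Cells with cushion markers were compared across the line between the cushion gate (0 to 3 endothelial markers) and the endothelial gate (4 or more). They were ranked by how many of the 7 endothelial markers they still showed, with 95 cells at 0, 205 at 1, 111 at 2, 52 at 3, 116 at 4 or 5 and 292 at 6 or 7. Twist1 stood at 47.2 CPM at 6 or 7 markers, 272 at 4 or 5 and 719 at 3, and then stayed between 694 and 796 down to 0. Sox9 stood at 8.96, 116 and 365 CPM over the same first 3 groups and then at 261 to 383. Snai1 followed, at 9.24, 30.5 and 69.5 CPM and then 53.2 to 65.7. Thus, in cells with 3 endothelial markers, these 3 genes were near the levels of cells with fewer. At 4 or 5 markers the Sox9 level came from a part of the cells, while Twist1 was spread more widely. The median cell there held 137 CPM of Twist1 and 29 CPM of Sox9, against 670 and 326 at 3 markers and 24.7 and 0 at 6 or 7. The lower quartile there was 60.4 CPM for Twist1 and 0 for Sox9. When thinned to 5000 UMIs, 30.2% of these cells had a Sox9 UMI and 55.2% a Twist1 UMI, against 2.05% and 17.5% at 6 or 7.

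Cdh2 and Snai2 were still lower in cells with 3 markers than in cells with 1 or 2. Cdh2 stood at 8.08 CPM at 6 or 7 endothelial markers, 14 at 4 or 5 and 39.1 (30.6 to 49.2) at 3, before 149 at 2 and 209 at 1. The median cell held 0 CPM of Cdh2 at 3 markers and 85.5 at 2. Snai2 stood at 4.35, 9.12 and 11.4 CPM, before 33 at 2 markers and 35.8 at 1. Twist2 lay between, at 4.89, 17.8 and 22.3 CPM and then 46.3. So at 3 endothelial markers Cdh2 was at 39.1 CPM against 149 to 209 in cells with 2 or fewer, while Twist1 and Sox9 were within the range of cells with fewer markers and Snai1, at 69.5 CPM, was slightly above it. Nfatc1, an endocardial factor, peaked at 155 CPM at 4 or 5 markers and fell to 15.1 at 0. Between 6 or 7 markers and 0, Zeb1 went from 307 to 183 CPM, Zeb2 from 190 to 242 and Vim from 4027 to 2421. These courses were not steady: Zeb1 was highest at 3 markers (327 CPM, 301 to 354), Zeb2 at 2 (254) and Vim at 4 or 5 (4202). The lower quartile of Vim per cell was 1015 CPM at 0 markers and 2473 at 1.

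With 3 to 5 markers as 1 group, every library held at least 13 cells. Twist1 then stood at 311 through 424 to 552 CPM, Sox9 at 144 through 210 to 265 CPM and Cdh2 at 8.18 through 21.1 to 34.5 CPM, against 118 through 198 to 220 CPM at 0 to 2 markers. The middle group was under the 0 to 2 group in 6 of 6 libraries and above the 6 or 7 group in 6 of 6 for Snai1, Snai2, Twist1, Twist2 and Sox9, and for Cdh2 in 6 of 6 and 5 of 6. The bin at 3 markers held 10 or more cells in only 2 libraries, in which Cdh2 stood at 27 and 43.6 CPM. Doublet calls were at most 0.488% of any group. The cut for a call left most simulated doublets uncalled, so this share does not show that doublets were few. Median UMIs per cell were 31600 at 3 markers and 36742 at 4 or 5, against 30503 to 34827 below and 45778 above. The part of doublets was not tested. The order is one of marker counts in cells taken at 1 time, not of time.

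**Figure D3:**
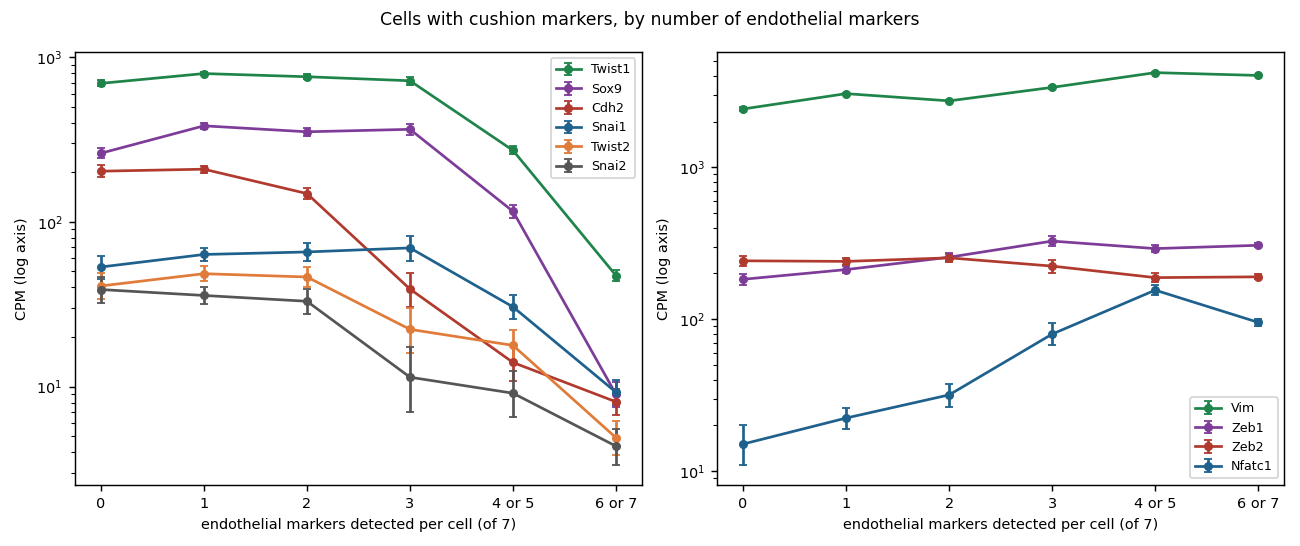
Level in CPM, on a log axis, of 6 members (left) and of Zeb1, Zeb2, Vim and Nfatc1 (right) in cells with cushion markers, grouped on the horizontal axis by the number of the 7 endothelial markers detected. Error bars are 95% counting intervals over all libraries. At 3 markers Twist1, Sox9 and Snai1 are near the levels of cells with fewer markers, while Cdh2 is at 39.1 and Snai2 at 11.4 CPM.

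Within endothelium, endocardium carried 28.6-fold more Sox9 than other endothelium (29.5 against 1.03 CPM, interval of the ratio 16.7 to 53.9), 5.71-fold more Twist1 and 2.45-fold more Zeb2 (190 against 77.6 CPM), each in 6 of 6 libraries. The Sox9 of other endothelium was 13 UMIs, 0 in 2 libraries, near the 0.63 CPM of erythroid cells. A Sox9 UMI was found in 19.9% of endocardial cells, and among cells with cushion markers Sox9 stood at 116 CPM at 4 or 5 endothelial markers against 8.96 at 6 or 7. Cdh2 was at 0.295 of the level of other endothelium, where libraries ran from 42.6 to 76.2 CPM and did not overlap those of endocardium. By the rule 3 of 7 tested members were higher and 1 lower, where 5.96% of 8778 genes tested were higher and 2.85% lower. Cardiomyocyte markers summed to 257 CPM in endocardium and 48 in other endothelium, paraxial mesoderm markers to 16.4 and 76.1, and second heart field markers to 31.1 and 68.5. Their part in these ratios was not tested. Of 12 tested matrix and invasion genes, 5 were higher in endocardium and 0 lower, with fibronectin Fn1 at 1017 against 97.9 CPM and Has2 at 33.7 against 1.59.

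The Sox10+ crest gate differed from crest mesenchyme in having much Zeb2 and little Twist. Zeb2 was 9.6-fold higher, Vim 3.56-fold and Cdh2 2.13-fold, while Twist2 was at 0.16, Snai2 at 0.224, Twist1 at 0.327, Zeb1 at 0.388 and Sox9 at 0.481 of the crest mesenchyme level. Snai1, at 0.637, was lower by less than 2-fold. By the rule 3 of 9 tested members were higher and 5 lower, where 4.45% of 8803 genes tested were higher and 3.48% lower. Neuron markers summed to 65.3 CPM in the Sox10+ gate and 19.2 in crest mesenchyme, paraxial mesoderm markers to 96.3 and 35.8, and second heart field markers to 25.3 and 82.2, and their part in these ratios was not tested. Library 1 had only 19 Sox10+ cells, so these directions rest on 5 libraries. With 1 marker fewer asked of each gate, Twist1, Zeb1, Sox9 and Cdh2 no longer passed the rule, and Sox9 also missed it when cells were thinned. Thinning moved the log2 ratio of Twist2 from -2.65 to -4.05.

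Zeb2 stood at 684 CPM in Sox10+ cells, with libraries from 537 through 669 to 1061, and at 71.3 CPM in crest mesenchyme (60.9 through 72.2 to 79.4). This was the highest Zeb2 level of any gate, and its lowest library was above the highest cushion library, at 278 CPM. Zeb1, the other Zeb gene, went the opposite way, at 42.7 CPM (35 to 50.3) against 110 (95.1 to 126). The gene Zeb2os lies on the opposite strand and overlaps chr2:44983632-45117395, the span of Zeb2. Whether the counting used strand is not given in the sources used here, so how far their reads were separated is not known.

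Twist1 stood at 126 CPM in Sox10+ cells, with libraries from 15.6 through 122 to 191. The lowest was library 3, with 24 cells. All 5 were under the lowest crest mesenchyme library, at 362 CPM. Snai2 was at 3.25 CPM, from 57 UMIs, with libraries from 0 through 2.52 to 5.39. Cdh2 stood at 198 CPM (173 through 202 to 227) against 93.1 in crest mesenchyme, with no overlap, and at about the cushion level of 173 CPM, whose libraries did overlap. Cdh1 held 1 UMI in all Sox10+ cells.

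The Sox10+ cells were not uniform. They were grouped by the number of the 9 crest mesenchyme markers they also showed, with 30 cells at 0 to 2, 71 at 3, 106 at 4 and 216 at 5 or more. Twist1 stood at 35.3, 41.2 and 37.6 CPM in the first 3 groups and at 185 (177 to 193) in the last. Zeb2 stood at 976, 963 and 891 CPM and then 522, and Cdh2 at 241, 261, 243 and then 164. Twist2 was at 5.64, 2.24, 7.7 and 19.3 CPM, and Zeb1 at 7.05, 22.4, 35.2 and 52.5. Of these, Twist2 at 0 to 2 and at 3 markers rests on 4 and 5 UMIs, and Zeb1 at 0 to 2 on 5. So the Twist1 in this gate lay mostly in cells with 5 or more crest mesenchyme markers, where Zeb2 was lowest. Median UMIs per cell also went up along these groups, from 22774 through 31483 and 36030 to 45428, and the summed crest mesenchyme list stood at 759 CPM in this gate against 877 in crest mesenchyme. The groups were summed over the libraries, between which Twist1 in this gate ran from 15.6 to 191 CPM. The part of depth and of the libraries in the order was not tested.

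**Figure D4:**
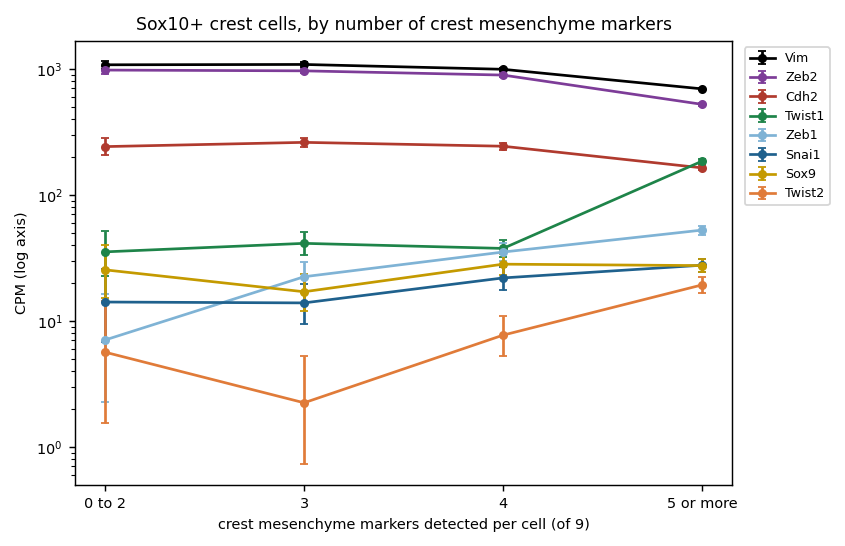
Level in CPM, on a log axis, of 8 members in Sox10+ crest cells, grouped on the horizontal axis by the number of 9 crest mesenchyme markers detected, with 95% counting intervals over all libraries. Twist1 is at 35.3 to 41.2 CPM in the first 3 groups and at 185 in the last, while Zeb2 and Cdh2 are lowest in the last.

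Some other cadherins also differed between these crest cells. Cdh10 stood at 91.8 CPM in Sox10+ cells against 2.92 in crest mesenchyme and Cdh6 at 777 against 37.3, while the mesenchymal Cdh11 was at 59.9 against 205. With Cdh4 (12.1 against 4.57 CPM), 3 of the 8 tested cadherins and catenins were higher and 1 was lower. Of 12 tested matrix and invasion genes, 1 was higher, Sparc (203 against 83.3 CPM), and 4 were lower, among them Tnc (1.08 against 25), Has2 (2.23 against 12.7) and the protease inhibitor Timp1 (3.94 against 13.7). Among partner factors Ets1 was higher (124 against 25.9 CPM) and Id1 lower (160 against 354), 1 each of 13 tested, which is near the 4.45% higher and 3.48% lower over all genes. Of 6 tested Sox and cartilage genes, Sox8 (39.9 against 4.71 CPM) and Sox5 (290 against 111) were higher and Col9a1 (16.6 against 86.7) was lower. Of 2 tested epithelial maintenance genes, Jup was higher (15.4 against 3.93 CPM) and Patj lower (2.63 against 11.3).

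Cushion cells and crest mesenchyme, both mesenchymal, also differed. Cushion cells carried 12.4-fold more Vim, 6.44-fold more Sox9, 3.4-fold more Zeb2, 2.26-fold more Snai2 and 2.1-fold more Zeb1, so that 5 of 9 tested members were higher and 0 lower, where 12.7% of 9173 genes tested were higher and 4.52% lower. Other marker lists also differed. Smooth muscle markers summed to 1336 CPM in cushion cells and 102 in crest mesenchyme, cardiomyocyte markers to 537 and 56.1 and neuron markers to 178 and 19.2. Endocardial markers summed to 776 and 31.9 CPM, which is partly fixed by the gate, since Gata4, Gata5 and Gata6 are also cushion markers. The part of these lists in the ratios was not tested. Twist1 was 1.98-fold higher, just under the line. Twist2 was at 0.502 of the crest level, just above the line for lower, and was the only Snail, Twist or Zeb gene that was less abundant in cushion cells, in 6 of 6 libraries. Within crest mesenchyme, 2843 cells had at least 3 of 4 Hox markers and 736 had none. No member differed between them by the rule, where 1.99% of 8577 genes tested were higher and 0.816% lower in the Hox-positive cells. Twist2 was at 0.624 of the Hox-negative level (66 against 106 CPM) and Sox9 at 1.61-fold (53 against 33 CPM), each in the same direction in 6 of 6 libraries. Paraxial mesoderm markers summed to 53.8 CPM in Hox-positive and 6 in Hox-negative cells, and epicardium markers to 20.3 and 5.35. Their part in these ratios was not tested.

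The number of different Snail, Twist and Zeb genes seen in 1 cell followed the same lines. With each cell thinned to 5000 UMIs, none of the 6 was seen in 87.8% of epithelial cells, 11.5% of endocardial cells, 1.94% of cushion cells, 5.31% of crest mesenchyme cells and 3.55% of Sox10+ cells. In erythroid cells the share was 62.5%, and most of what was seen there was Zeb2, with a UMI in 31.3% of cells. The median cell held 0 of the 6 genes in epithelium, 2 in endocardium and in crest mesenchyme, 3 in cushion and 1 in the Sox10+ gate. Cells with 3 or more made up 54.4% of cushion cells, 27.5% of crest mesenchyme, 13.9% of endocardium, 9.22% of Sox10+ cells and 0.344% of epithelium. At full depth the share with 3 or more was 98.3% in cushion, 91.0% in crest mesenchyme, 75.3% in endocardium, 49.2% in the Sox10+ gate, 2.81% in epithelium and 6.16% in erythroid cells. Median depths before thinning were 27412 UMIs in epithelium, 39642 in endocardium, 33987 in cushion cells, 37431 in crest mesenchyme and 38625 in Sox10+ cells. Both cadherin genes were seen in the same thinned cell in 5.62% of epithelial cells, 5.09% of endoderm and 1.27% of surface ectoderm and 0.0122% of crest mesenchyme. At full depth these shares were 32.1%, 31.3%, 13.7% and 0.462%.

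**Figure D5:**
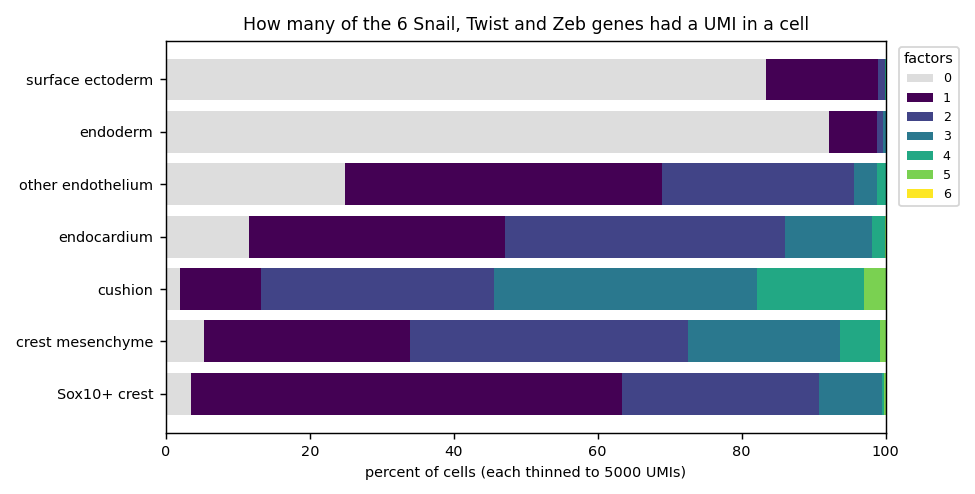
Share of cells, in percent on the horizontal axis, in which 0 to 6 of the Snail, Twist and Zeb genes had a UMI after each cell was thinned to 5000 UMIs, for 7 groups of gated cells. Grey marks cells with none, which make up 83.4% of surface ectoderm and 92.1% of endoderm but 1.94% of cushion cells.

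Ranking the 7 groups of cells by level placed cushion first for Snai1, Snai2, Twist1 and Sox9, crest mesenchyme first for Twist2, Sox10+ crest first for Zeb2 and Cdh2, endocardium first for Vim, other endothelium first for Zeb1 and endoderm first for Cdh1. Library ranges of the 2 top neighbours overlapped for Zeb1 (other endothelium and endocardium), Cdh2 (Sox10+ crest and cushion) and Cdh1 (endoderm and surface ectoderm). Within libraries, Cdh1 was lower in surface ectoderm than in endoderm in 6 of 6, at 0.873 of its level (0.82 to 0.929). Zeb1 was lower in endocardium than in other endothelium in 4 of 6. For Sox9 below cushion, crest mesenchyme, endoderm, surface ectoderm, endocardium and Sox10+ crest ran from 54.5 to 26.2 CPM with overlapping neighbours. The ends of this run did not overlap, with libraries from 44.7 to 67.4 CPM in crest mesenchyme and 20.4 to 32.1 in Sox10+ crest. Other endothelium was at 1.03 CPM.

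Genes whose levels followed a member most closely were sought over 59 points, each 1 of 10 groups of cells in 1 library. The search took in 11004 genes that reached 10 CPM in a gate. The marker genes of all gates were left out, so a marker that followed a member more closely would not appear. The points of a library share its chemistry and depth, so the correlations of log2(CPM + 1) are descriptions. The nearest to Twist1 was Pdgfra, a growth factor receptor of mesenchyme (Pearson r = 0.95), with Pdgfrb (0.94) and Twist2 (0.92) next. For Twist2 they were Dnm3os (0.95), Pdgfra (0.95) and Tnfaip6 (0.94). Cdh1 was followed most closely by the protease gene Prss8, Crb3 and Ap1m2, all with r above 0.99. For Vim they were Heg1 (0.97), Ralb (0.96) and Nfic (0.96), for Zeb1 they included Adgra2 (0.93) and Lix1l (0.90), and for Sox9 Resf1 (0.93), Klhl29 (0.92) and Rtn1 (0.91). For Zeb2 the first was its antisense neighbour Zeb2os (0.87), then Gdap2 and Timm10b (0.83 each). Cdh2 was followed by Serp2, Ccn1 and Samd4 (0.91 each), Snai1 by 4930503L19Rik, Camk2n2 and Twist1 (0.89, 0.89 and 0.88), and Snai2 by Boc (0.86), Pla2g4a (0.84) and Pdlim2 (0.82). Among the members themselves Cdh1 ran opposite to Zeb2 (-0.88) and Zeb1 (-0.84) more than to Vim (-0.47), Twist1 (-0.46), Snai1 (-0.44) or Twist2 (-0.41). It did not run opposite to Snai2 (0.01) or Sox9 (0.14), and hardly to Cdh2 (-0.13). The 10 groups included erythroid cells and cardiomyocytes, which held Zeb2 at 75.8 and 77.0 CPM but Snai1 at 0.456 and 2.93. The part of these 2 groups in the correlations was not tested.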

How the data were processed

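The deposited counts are UMIs per gene and cell in 1 matrix, and the file headers name Cell Ranger 5.0.0 as its source. Submitters' processing notes also name CASAVA 1.8, Seurat 4 and the build mm10. Counting settings are not given in the sources. The labels' descriptions name a chromatin assay, but titles and kit name RNA, and the values were treated as RNA counts.

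Barcodes with at least 2500 genes and at most 10% mitochondrial UMIs were retained. The members and all lists were chosen with earlier results of these data known, and the marker minimum of each gate was set after seeing marker counts but not member levels. A cell passing the minimum of another class was left out of a gate, with exceptions. Crest mesenchyme markers did not remove a cell from the Sox10+ gate. Cushion markers removed cells only from the crest mesenchyme and Sox10+ gates, and second heart field markers only from the cushion gate. No minimum was set for the smooth muscle list, so smooth muscle markers removed no cell. UMIs were summed per gate and library and scaled to CPM. Poisson and binomial exact intervals (95%) cover counting error only. The planned test of STZ against vehicle in each gate was not run, since libraries are not tied to samples. The named genes are the members, up to 4 genes of each list with the largest absolute log2 ratio, and the 3 genes most correlated with each member, of which 1 is not reported here.

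Thinning drew 5000 UMIs per cell, leaving out 4 shallower cells. Doublets were scored per library by a Scrublet-type method, and called cells were kept, then removed as an alternative. The cut for a call lay above the scores of most simulated doublets, so many doublets may be uncalled. The ratio step was tested on simulated data. Python 3.11.15, numpy 2.4.6, scipy 1.17.1, pandas 2.3.3 and scikit-learn 1.9.0 were used.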

Additional observations from a re-analysis of the deposited data

How the results depend on the processing

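The counts of members higher or lower in the 3 main comparisons were recomputed under 16 other settings: a looser cell filter, 1 marker more or fewer per gate, doublet calls or shared barcodes left out, thinning, a mean per cell, a median over libraries, no level minimum, each library left out in turn, and, chosen after seeing the data, the 5% of cells with the highest doublet scores left out. With 1 marker fewer per gate, 2 members and not 5 were lower in Sox10+ crest than in crest mesenchyme, Snai2 and Twist2. That gate then takes in Sox10 cells with fewer crest markers, and the cause was not tested. The other counts stayed within 1.5 times of the main one. Of 463 recomputed log2 ratios of the members, 0 reversed a call and 10 moved by more than 1.5-fold. Twist2 in Sox10+ crest over crest mesenchyme went from -2.65 to -4.05 when thinned and to -1.94 with 1 marker fewer, where Twist1 went from -1.61 to -0.94. Sox9 in cushion over endocardium went from 3.57 to 4.42 with 1 marker more. Without the highest doublet scores, crest mesenchyme over epithelium went from 3.37 to 4.05 for Zeb2 and from 5.12 to 5.77 for Twist2. The remaining 4 were of Cdh1 in Sox10+ crest, which rests on 1 UMI or, where none was left, on the limit of 3 counts, so no direction is read from them. The uncalled ratio of Cdh2 in crest mesenchyme over epithelium turned from 0.22 to -0.18 with 1 marker more. No paired test was run. The barcode numbers carry no replicate number of the labels, so STZ and vehicle samples could not be paired. Gates of the same libraries were compared, and directions within each library stand beside the ratios. Depth limits statements on Cdh1 outside epithelium, where gates held 0 to 75 UMIs.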

Other observations

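Outside the main gates, cardiomyocytes (3226 cells) carried Cdh2, the cadherin of their intercalated junctions, at 339 CPM, with libraries from 326 through 334 to 370, higher than in any crest, cushion or endothelial library. Their Zeb1 stood at 108 CPM and Zeb2 at 77.0, while Twist1 stood at 21.0, Snai1 at 2.93, Snai2 at 3.05 and Sox9 at 4.41 CPM. Vim stood at 545 CPM (483 to 591).

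Epicardium (1445 cells), the outer layer of the heart, which is an epithelium in form, held Cdh1 at 0.205 CPM (0 to 0.316) and Cdh2 at 215 CPM (190 through 218 to 240). Its Sox9 was 112 CPM (92.5 to 130), below every cushion library and above every crest mesenchyme library. Twist1 stood at 101 CPM (83.0 to 135), Snai2 at 15.4, Snai1 at 9.39, Twist2 at 21.5, Zeb1 at 90.6, Zeb2 at 82.6 and Vim at 1877 CPM (1270 to 2417). Of the 6 Snail, Twist and Zeb genes, the median thinned cell held 1, as in cardiomyocytes.

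Erythroid cells (1395) held Zeb2 at 75.8 CPM (68.6 to 91.6) and Zeb1 at 19.5 (16 to 22.1), with each of the other 8 members at 5.85 CPM or less.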
